A study of Rattus norvegicus with 6 samples.

Results

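The genes described here are the splicing regulators of the SR, hnRNP and RBM families in primary rat brain microvascular endothelial cells (rBMECs), compared between cells given homocysteine (Hcy) and cells given vehicle (Veh). Members were taken by name, as every row whose symbol starts with Srsf and a digit, with Hnrnp, or with Rbm and a digit, together with LOC100910882, listed with the Swiss-Prot match of Rbm39 and called its copy below, although their sequences were not compared here. This gave 70 of the 33566 rows of the deposited count table, of which 12 were SR, 19 hnRNP and 39 RBM rows. The test used rows with at least 10 counts over the 6 libraries, which kept 63 members (11 SR, 19 hnRNP and 33 RBM) and 14603 genes in all.

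The study asked which genes respond to Hcy, an amino acid of one-carbon metabolism, in the endothelium of the blood-brain barrier. Both groups held rBMECs from SD rats aged 18 to 22 days, used after a passage in culture. The Hcy group (n = 3) received Hcy for 24 h, at 100 μM by the sample labels, whose protocol also names a 50 μM solution. The Veh group (n = 3) received the water in which Hcy was dissolved. The design text calls the 3 libraries of a group biological replicates and does not say how many rats or isolations they came from.

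Libraries held 14024997 to 16764584 counts, and 3 counts in a library equalled 0.178 to 0.215 CPM (counts scaled to the library's total). Veh replicate 3 stood apart from the other libraries: its counts differed from Veh replicate 1 with a chi-square of 29.3 per degree of freedom, against 6.49 between Veh replicates 1 and 2. Of 13 endothelial markers 10 were tested, and their summed level was 8889 to 9321 CPM in Hcy and 7120 to 8676 CPM in Veh. Cldn5, a tight junction gene of brain endothelium, was listed at 0 in all 6 libraries, and Pecam1 and Abcb1a were not analysed here. The 4 smooth muscle markers were all detected and summed to 675 to 697 CPM in Hcy and 1137 to 1317 CPM in Veh. Of these, Tagln, Cnn1 and Acta2 were lower in Hcy at an adjusted p of 8.01e-04, 0.00177 and 0.0248 in edgeR's quasi-likelihood test. Fibroblast markers summed to 35.8 to 58.3 CPM in Hcy and 58.4 to 82.0 CPM in Veh, pericyte markers to 3.73 to 6.13 and 2.97 to 3.92 CPM, and neuronal markers to 6.87 to 9.70 and 5.30 to 7.22 CPM. Fold changes were above 0 for 4 of the 6 pericyte markers and below 0 for 2. Of the 3 tested fibroblast markers, 2 were above 0 and 1 below. Astrocyte markers summed to at most 1.08 CPM and microglial markers to at most 0.782 CPM in any library, with Aqp4, Slc1a2, Cx3cr1, Ptprc and P2ry12 at 0. The part of these other cell types or of Veh replicate 3 in the differences below was not tested, beyond the values given without that library. In bulk RNA, fewer cells of a type and less RNA per cell cannot be told apart.

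Pre-mRNA splicing is steered by RNA-binding proteins that mark exons and splice sites. SR proteins carry a domain rich in arginine and serine, bind exonic enhancers and recruit the spliceosome. Proteins of the hnRNP families coat nascent RNA and often act against exon inclusion, although many also act in RNA export, stability and translation. RBM is a naming group for proteins with an RNA recognition motif, and it holds spliceosome components as well as regulators of mRNA decay, methylation and translation.

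Among the 63 tested members, Rbm39 was the single gene called in Hcy, where a call needed an adjusted p no higher than 0.05 and a log2 fold change of 1 or more in size. It was lower in Hcy. Of all genes tested, 34 (0.233%) were called lower and 71 (0.486%) were called in either direction. Under the adjusted p alone Rbm39 was again the only member, against 341 genes (2.34%) overall. The median log2 fold change was 0.044 over the 63 members and -0.015 over all genes tested. Of the 63 members, 56 had a log2 fold change under 0.5 in size, against 12073 of all 14603 genes tested. For 50 members the whole 95% interval of the log2 fold change lay within 0.5 of 0, against 7085 of the 14603 genes. The spread of a fold change and its interval depend on the count level. Neither these shares nor the shares of all genes given below were matched for it.

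**Figure D1:**
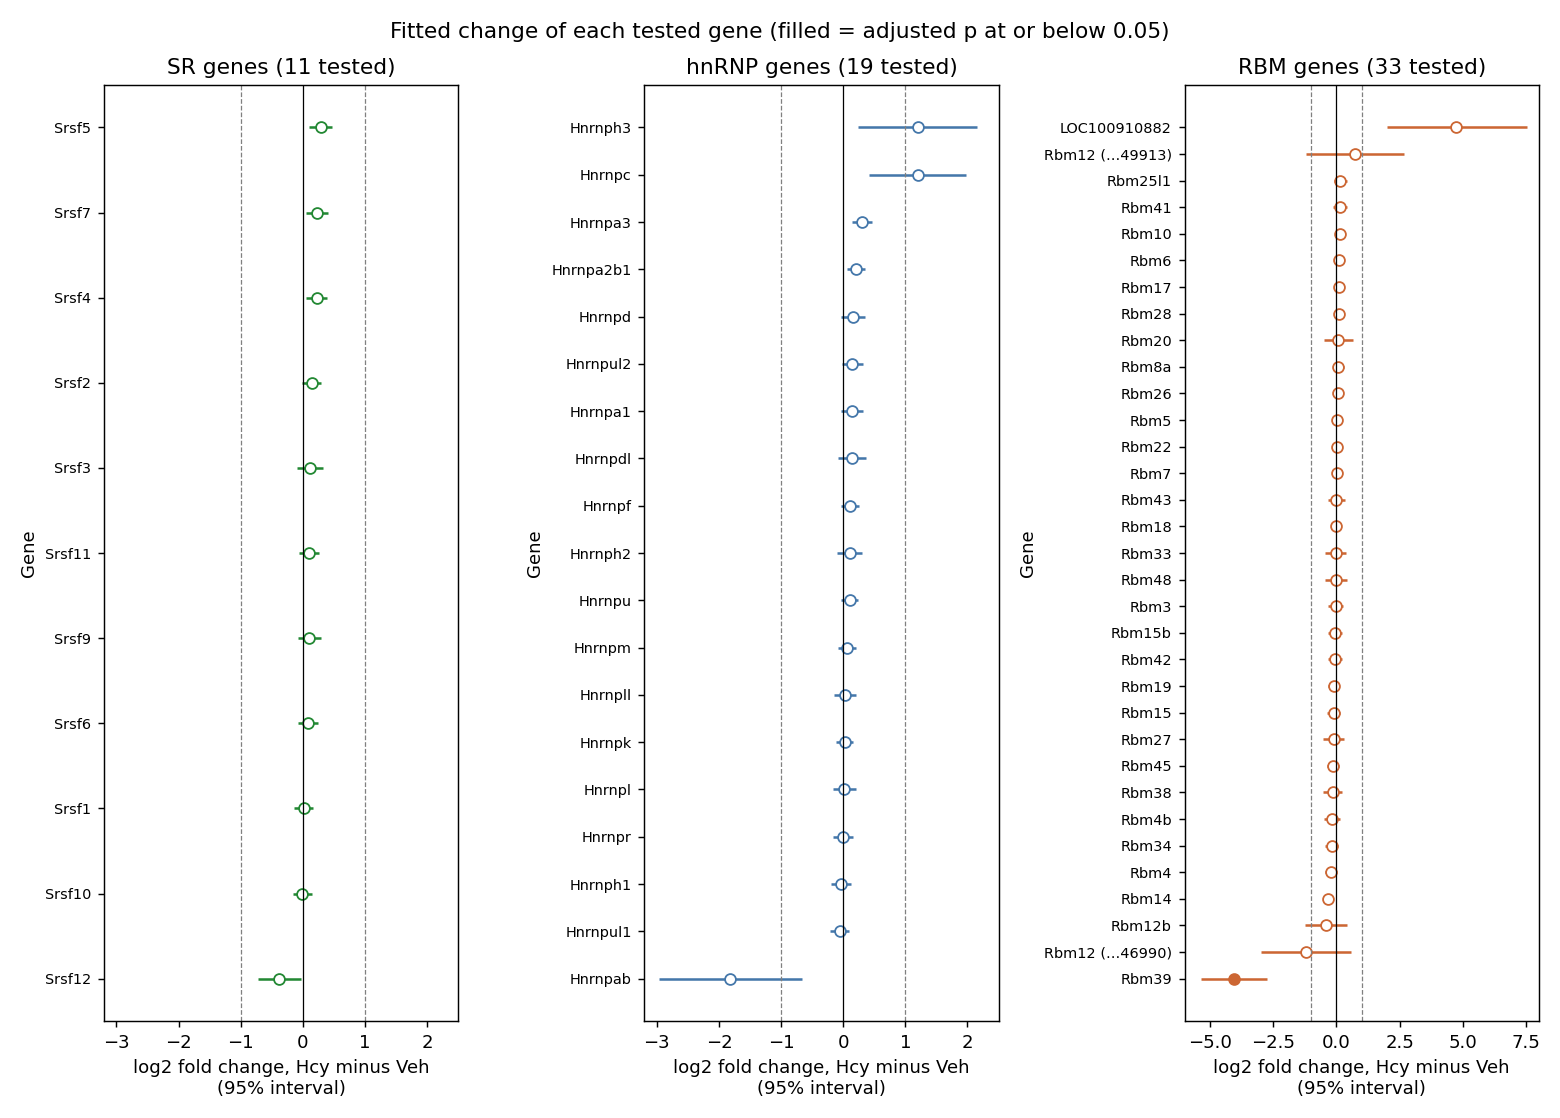
Log2 fold change (Hcy minus Veh, x axis) of each tested SR, hnRNP and RBM gene (y axis), with its 95% interval from edgeR's quasi-likelihood fit on 3 libraries per group. Filled points have an adjusted p of at most 0.05, dashed lines mark a log2 fold change of 1, and the RBM panel has a wider scale. Rbm39 is the 1 filled point, and most other genes lie close to 0.

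Rbm39 (ENSRNOG00000019848) encodes a splicing factor related to U2AF2 that also acts as a transcriptional coactivator. The table lists it on chromosome 3 at 151691514 to 151724654, minus strand, without naming a build. Its counts were 238, 818 and 1143 in Veh replicates 1 to 3 and 40, 47 and 46 in the Hcy replicates. In CPM these were 14.1, 52.1 and 79.1 in Veh and 2.87, 3.16 and 2.75 in Hcy. Every Hcy library lay below every Veh library, and the Veh libraries differed among themselves by up to 5.44-fold (after adding 0.5 CPM) where the Hcy libraries differed by 1.13-fold. The means were 2.92 ± 0.211 CPM in Hcy and 48.5 ± 32.6 CPM in Veh (SD, n = 3 each), a 16.6-fold difference. The fitted log2 fold change was -4.04 (SE 0.57, 95% interval -5.34 to -2.75), at an adjusted p of 0.0108 by edgeR. The call was lost without Hcy replicate 1, 2 or 3, where the adjusted p was 0.0672, 0.0568 and 0.0738 and the log2 fold change -4.03, -4.10 and -4.00.

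The table holds a second row with this Swiss-Prot match. LOC100910882 (ENSRNOG00000049814) is listed on chromosome 3 at 152226710 to 152259156, minus strand. It had 11, 0 and 5 counts in the Veh replicates and 188, 212 and 5 counts in the Hcy replicates. In CPM these were 0.653, 0 and 0.346 in Veh and 13.5, 14.2 and 0.298 in Hcy. Hcy replicates 1 and 2 were high, and Hcy replicate 3 lay within the Veh libraries, so the groups overlapped. The log2 fold change was 4.75 (SE 1.23, 95% interval 2.01 to 7.55) at an adjusted p of 0.0977, which did not pass. Without Hcy replicate 3 the adjusted p was 0.00911 at a log2 fold change of 5.32. The fitted change of the copy had the opposite sign to that of Rbm39. How reads that fit both copies were counted is not given in the sources used here.

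Summed over both rows, the counts were 249, 818 and 1148 in the Veh replicates and 228, 259 and 51 in the Hcy replicates. In CPM the sums were 14.8, 52.1 and 79.5 in Veh and 16.4, 17.4 and 3.04 in Hcy. Veh replicate 1 lay between Hcy replicates 3 and 1, so the summed groups overlapped where those of the Rbm39 row alone did not. The copy held 82.5% and 81.9% of the summed counts in Hcy replicates 1 and 2, 9.80% in Hcy replicate 3, and at most 4.42% in any Veh library. The mean of the sum was 12.3 ± 8.01 CPM in Hcy and 48.8 ± 32.5 CPM in Veh (SD, n = 3 each). Its log2 fold change was -2.00 (SE 0.66, 95% interval -3.49 to -0.52) at an adjusted p of 0.199 by edgeR, so the summed row was not called. With at least 1 count over the libraries in place of 10 it was called, at an adjusted p of 0.0492.

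**Figure D2:**
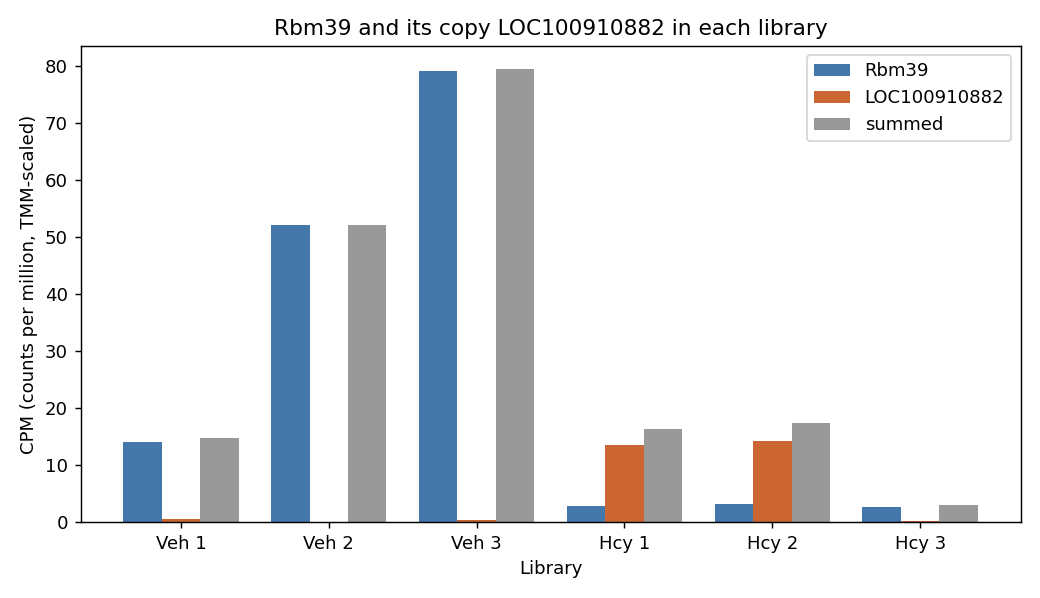
Level (y axis, CPM) of Rbm39, of its copy LOC100910882 and of their sum in each of the 3 Veh and 3 Hcy libraries (x axis). The Rbm39 row is at 14.1 to 79.1 CPM in Veh and at most 3.16 CPM in Hcy, while the copy reaches 13.5 and 14.2 CPM in Hcy replicates 1 and 2.

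Both rows belong to a stretch of chromosome 3 that the table lists at 2 places, noticed after the values were seen. The first place runs from 151609602 to 151724654 and the second from 152143811 to 152259156. Each holds 6 rows, paired by Swiss-Prot match, for Spag4, Cpne1, Rbm12, Nfs1, Romo1 and Rbm39. Of these 12 rows 8 had at least 10 counts, and all 8 varied over 2-fold among the libraries of at least 1 group, by 2.10- to 64.6-fold. Romo1, which encodes a mitochondrial membrane protein, had 568 counts in Hcy replicate 1 and 2 to 9 in each other library. Nfs1, a cysteine desulfurase of iron-sulfur cluster assembly, had 1, 1 and 158 counts in Veh and 56, 1 and 3 in Hcy at the first place. At the second place Nfs1 had 195, 213 and 188 counts in Veh and 1, 4 and 146 in Hcy. The 5 neighbours with at least 10 counts that are listed at 1 place only (Cep250, Ergic3, Phf20, Scand1 and AABR07054400.1) varied by at most 1.56-fold within a group. In the RefSeq table of GRCr8, Rbm39, Rbm12, Nfs1, Romo1 and Cpne1 each have 1 row.

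The 2 Rbm12 rows lie in the second place. Rbm12 encodes a protein with several RNA recognition motifs. The row ENSRNOG00000046990, whose Swiss-Prot match is that of the copy listed as Cpne1, had 12.7, 20.9 and 10.0 CPM in Veh and 1.15, 1.55 and 16.1 CPM in Hcy. Hcy replicates 1 and 2 lay below all Veh libraries and Hcy replicate 3 lay among them. Its log2 fold change was -1.19 (SE 0.78, 95% interval -2.96 to 0.58) at an adjusted p of 0.585, and it was -3.42 at an adjusted p of 0.0105 without Hcy replicate 3 but -0.71 and -0.73 without Hcy replicates 1 and 2. The row ENSRNOG00000049913 had 40 counts in all, with 20 of them in Hcy replicate 3, and its log2 fold change of 0.72 turned to -0.84 without that library.

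Hnrnpab (ENSRNOG00000003645) encodes a protein of the A/B family that binds both RNA and promoter DNA. It is listed on chromosome 10 at 34955716 to 34961608, minus strand. Its level was 61.6, 40.0 and 10.0 CPM in the Veh replicates and 10.1, 11.9 and 9.79 CPM in the Hcy replicates. Veh replicates 1 and 2 were high and Veh replicate 3 lay at the level of the Hcy libraries. The log2 fold change was -1.82 (SE 0.51, 95% interval -2.97 to -0.67) at an adjusted p of 0.128, which did not pass. Without Veh replicate 3 it was -2.26 at an adjusted p of 7.20e-05. Without Veh replicate 1 it was -1.24 at an adjusted p of 0.331, and it did not pass without any of the other libraries either.

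Hnrnpab also lies in a stretch listed at 2 places, on chromosome 10 at 34938667 to 35054225 and at 37032043 to 37215899. Each place holds 7 rows, and 8 of the 14 had at least 10 counts. Of these 8, 6 varied over 2-fold within a group. Nhp2, a component of box H/ACA ribonucleoproteins, had 1367 counts in Hcy replicate 3 and 4 to 11 in each other library. LOC103689949 had 406 counts in Hcy replicate 2 and 17 to 31 in each other library. The copy of Hnrnpab, LOC103689931, had 1 count over the 6 libraries. Of the 4 neighbours with at least 10 counts and 1 place only, Flt4, Cnot6 and Sar1b varied by at most 1.52-fold within a group. The other, Scgb3a1, had 1, 4 and 3 counts in Veh and 1, 6 and 4 in Hcy, too few to judge its range. The part of the doubled listing in the Rbm39, Rbm12 and Hnrnpab values was not tested.

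**Figure D3:**
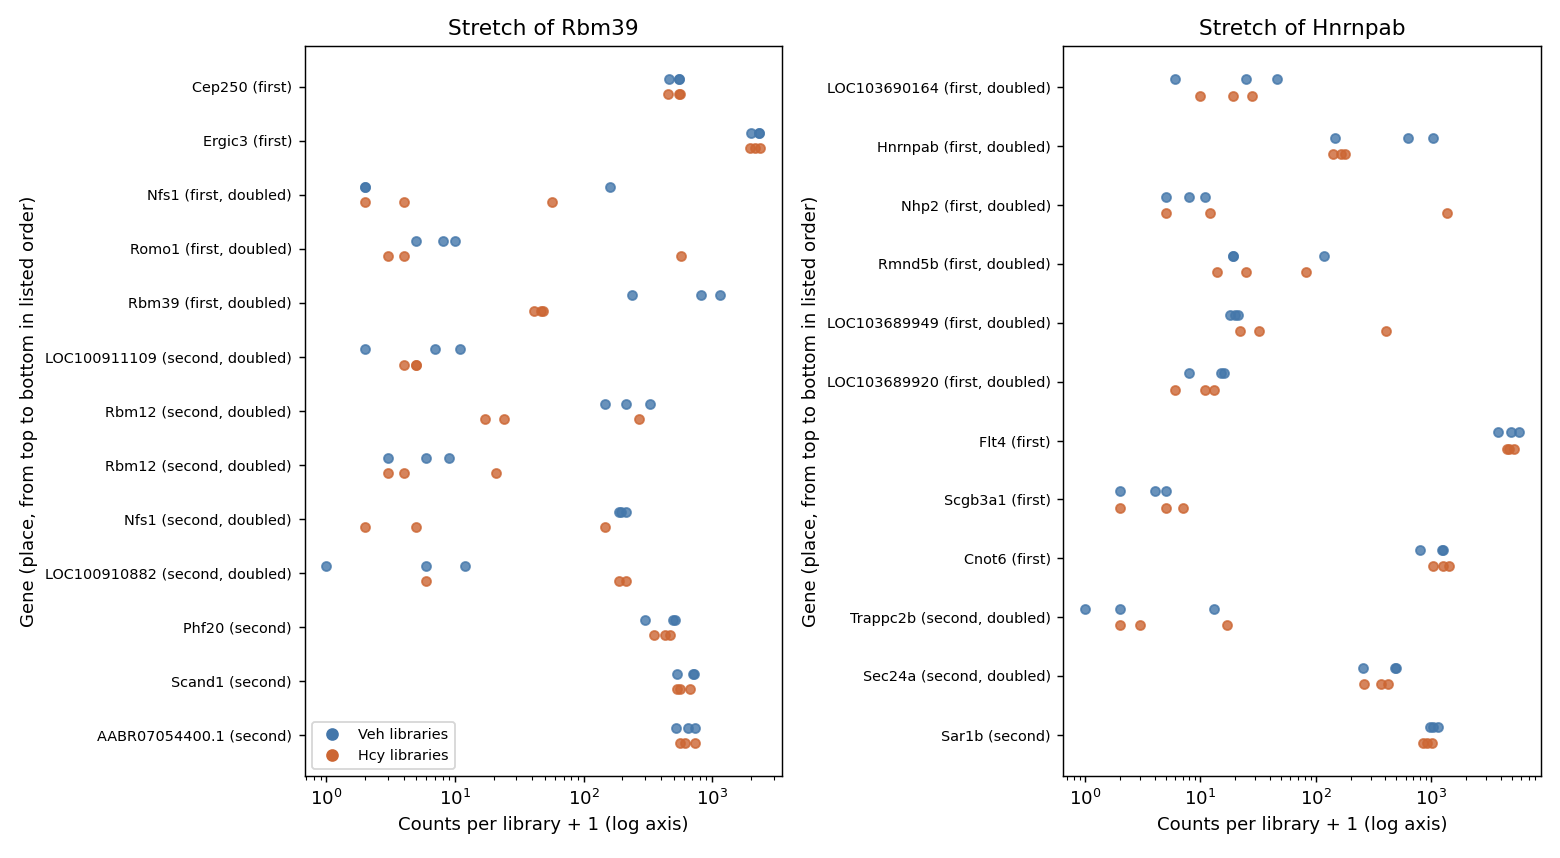
Counts in each Veh and Hcy library (x axis, counts + 1 on a log axis) of the rows with at least 10 counts in and around the stretches of Rbm39 and Hnrnpab (y axis, in listed order, with the place and whether the row is doubled). Doubled rows such as Romo1, Nfs1, Nhp2 and LOC103689949 are spread over the axis, with single libraries at up to 1367 counts. The neighbours listed once stay within 1.56-fold in a group (after adding 0.5 CPM), apart from Scgb3a1, which has 1 to 6 counts per library.

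A range over 2-fold among the libraries of a group was found in 561 of the 11788 genes with a mean of at least 1 CPM (4.76%). Of 62 members at this level, 6 (9.68%) did so: Rbm39, LOC100910882, Rbm12 (ENSRNOG00000046990), Hnrnpab, Hnrnpc and Hnrnph3. Over all genes, 30.5% of the 561 had another row with the same Swiss-Prot match within 3000000 bases on the chromosome, against 4.51% of the other 11227. The 5 member rows of the doubled stretches include Rbm39, the only called member, so no called member is left without them, by construction. Without these 5 rows, 2 of the 6 members with a wide range remained.

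Those 2 were Hnrnpc and Hnrnph3. Hnrnpc (ENSRNOG00000011621), which binds uridine tracts and packages nascent transcripts, is listed on chromosome 15 at 28486617 to 28517353, minus strand, with no second row of its Swiss-Prot match. Its level was 31.9, 24.6 and 27.3 CPM in Veh and 58.9, 31.5 and 102 CPM in Hcy. The lowest Hcy library lay just below the highest Veh library. Hnrnpc had a log2 fold change of 1.20 (SE 0.34, 95% interval 0.42 to 1.98) at an adjusted p of 0.139, and it was 1.52 at an adjusted p of 0.0284 without Hcy replicate 2 and 0.69 at an adjusted p of 0.375 without Hcy replicate 3. Hnrnph3, a member of the F/H family that binds runs of guanine and whose listed interval overlaps that of LOC100910755 on the other strand, had 2.43, 2.87 and 2.08 CPM in Veh and 3.38, 3.49 and 10.0 CPM in Hcy. Every Hcy library lay above every Veh library, with Hcy replicate 3 far above the rest. Its fitted log2 fold change was 1.20 (SE 0.42, 95% interval 0.25 to 2.16) at an adjusted p of 0.233, and it was 0.48 at an adjusted p of 0.611 without Hcy replicate 3.

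The remaining 56 members of at least 1 CPM varied by at most 1.67-fold within either group. Their log2 fold changes ran from -0.40 (Rbm12b) to 0.31 (Hnrnpa3), with a median of 0.038. None passed the adjusted threshold. Counting all tested members, every Hcy library lay above every Veh library for 11 of 63 (17.5%), against 10.8% of all genes tested. Every Hcy library lay below every Veh library for 3 of 63 (4.76%), against 9.27% of all genes. An unadjusted p of at most 0.05 was found for 12 members (19.0%), against 13.4% of all genes.

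**Figure D4:**
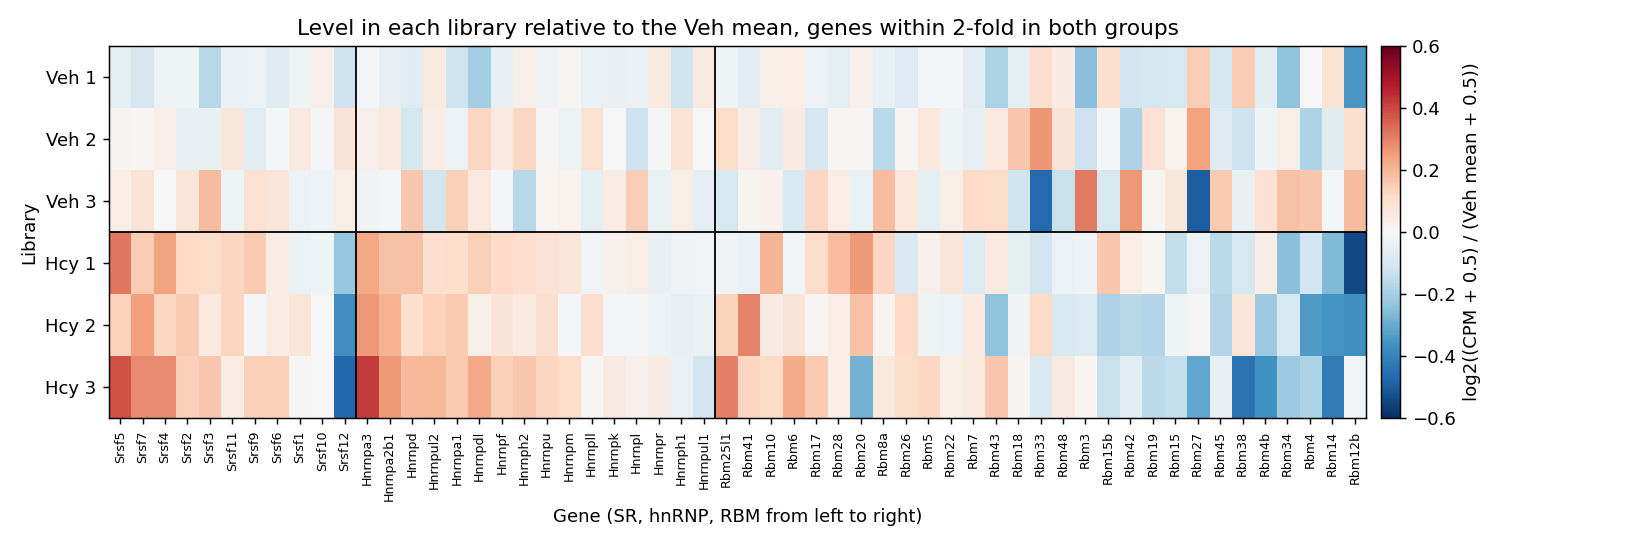
Level in each of the 6 libraries (rows) relative to the Veh mean (colour, log2 of CPM + 0.5 over the Veh mean + 0.5) for the 56 members within 2-fold in both groups (columns, by family and falling log2 fold change). Srsf5, Srsf7, Srsf4 and Hnrnpa3 are higher in all 3 Hcy libraries, Srsf12 and Rbm14 are lower, and Veh replicate 3 differs from Veh replicates 1 and 2 in genes such as Rbm3, Rbm27 and Rbm33.

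Of the 12 SR genes, 11 were tested, and Srsf8 had no count. The fold changes were above 0 for 9 (81.8%, against 46.9% of all genes) and below 0 for 2, from -0.38 to 0.29 on the log2 scale, and none passed the adjusted threshold. In 4 genes (Srsf2, Srsf4, Srsf5 and Srsf7, 36.4% against 10.8% of all genes) every Hcy library lay above every Veh library, and in Srsf12 (9.09% against 9.27%) every Hcy library lay below.

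Srsf5, an SR protein that binds exonic enhancers, had 184, 194 and 197 CPM in Veh and 239, 211 and 250 CPM in Hcy. The groups did not overlap, and the log2 fold change was 0.29 (SE 0.08, 95% interval 0.10 to 0.47) at an adjusted p of 0.131, where DESeq2 gave 0.0436. Srsf7, an SR protein that also acts in mRNA export, had 84.9, 91.8 and 96.1 CPM in Veh and 101, 108 and 111 CPM in Hcy. Its log2 fold change was 0.23 (SE 0.08) at an adjusted p of 0.217. Srsf4, a larger SR protein, had 44.3, 46.2 and 45.1 CPM in Veh and 53.5, 49.3 and 55.1 CPM in Hcy. The log2 fold change was 0.22 (SE 0.07) at an adjusted p of 0.216. These were differences of 1.17- to 1.22-fold between group means.

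Srsf12, the tested SR gene with the lowest level, had 7.12, 8.28 and 8.03 CPM in Veh and 6.61, 5.91 and 5.49 CPM in Hcy. Its log2 fold change was -0.38 (SE 0.15, 95% interval -0.72 to -0.04) at an adjusted p of 0.310. Srsf2, a nuclear speckle protein, had a log2 fold change of 0.14 (95% interval -0.01 to 0.29). Srsf3, the smallest SR protein, had 0.11 (95% interval -0.10 to 0.33) on the same scale. Srsf1, a founding SR protein, had 231 to 247 CPM in Veh and 230 to 249 CPM in Hcy, with a log2 fold change of 0.01 (95% interval -0.14 to 0.17). Srsf10, which acts as a splicing repressor when dephosphorylated, had -0.01 (95% interval -0.16 to 0.15). Srsf6, Srsf9 and Srsf11 had log2 fold changes of 0.08, 0.10 and 0.10. Rows with the Swiss-Prot match of Srsf3, Srsf5, Srsf6 and Srsf7 exist elsewhere in the table, so their counts may share reads with copies.

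All 19 hnRNP genes were tested. Their fold changes were above 0 for 15 (78.9%, against 46.9% of all genes) and below 0 for 4, none passed the adjusted threshold, and the median log2 fold change was 0.11. In 6 genes (Hnrnpa2b1, Hnrnpa3, Hnrnpf, Hnrnph3, Hnrnpu and Hnrnpul2, 31.6% against 10.8% of all genes) every Hcy library lay above every Veh library.

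Hnrnpa3, an A/B protein that binds RNA and telomeric DNA repeats, had 503, 516 and 499 CPM in Veh and 594, 607 and 678 CPM in Hcy. The groups did not overlap, and the means differed by 1.24-fold. The log2 fold change was 0.31 (SE 0.07, 95% interval 0.15 to 0.47) at an adjusted p of 0.0645. It passed with DESeq2, at an adjusted p of 0.00631, but its fold stayed below the threshold for a call. Hnrnpa2b1, which sorts RNAs for transport and is linked to methylated adenosine in RNA, had 470, 507 and 485 CPM in Veh and 550, 563 and 582 CPM in Hcy. Its log2 fold change was 0.21 (SE 0.06) at an adjusted p of 0.156. Hnrnpa1, the best known splicing repressor of the family, had 432, 458 and 519 CPM in Veh and 505, 523 and 524 CPM in Hcy. Here Veh replicate 3 lay within the Hcy libraries and the log2 fold change was 0.14 (95% interval -0.04 to 0.32). Hnrnpa1 and Hnrnpa3 each share a Swiss-Prot match with 5 other rows, so their counts may be split with copies.

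Hnrnpd, which binds AU-rich elements, had 126 to 152 CPM in Veh and 145 to 155 CPM in Hcy, at a log2 fold change of 0.16 (95% interval -0.04 to 0.36). Its relative Hnrnpdl had a log2 fold change of 0.14 (95% interval -0.09 to 0.37). Of the F/H family, Hnrnpf had 0.11 (95% interval -0.03 to 0.26), Hnrnph1 -0.03 (95% interval -0.20 to 0.13) and Hnrnph2 0.11 (95% interval -0.09 to 0.31). Of the U family, whose scaffold protein Hnrnpu binds nuclear RNA and chromatin, Hnrnpu had 0.10, Hnrnpul2 0.15 and Hnrnpul1 -0.06. The 5 genes Hnrnpk, Hnrnpl, Hnrnpll, Hnrnpm and Hnrnpr had log2 fold changes of -0.01 to 0.06. Hnrnpk, a protein that binds cytidine tracts, had 726 to 773 CPM in Veh and 746 to 778 CPM in Hcy, with a 95% interval of -0.11 to 0.16.

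Of the 39 RBM rows, 33 were tested, with 15 fold changes above 0 and 18 below 0 (54.5%, against 53.1% of all genes). Every Hcy library lay above every Veh library for 1 RBM row, Rbm10 (3.03%, against 10.8% of all genes). For 2 rows, Rbm39 and Rbm14, every Hcy library lay below (6.06%, against 9.27%). Rbm31y, Rbm46 and Rbm47 had no count, and Rbm11, Rbm24 and Rbm44 had 7, 1 and 9 counts in all. Rbm24 is known from muscle splicing, and Rbm46 and Rbm47 from germ cells and RNA editing. In a library without a count, the level could be up to 0.178 to 0.215 CPM, from counting error alone.

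Among RBM genes of the spliceosome, 11 rows were tested including Rbm39 and its copy, and the other 9 had log2 fold changes of -0.06 to 0.14. Rbm8a, a core protein of the exon junction complex, had 73.3 to 93.6 CPM in Veh and 83.2 to 89.8 CPM in Hcy. Rbm22, a component of the active spliceosome, had a log2 fold change of 0.03 (95% interval -0.14 to 0.19). Rbm5, Rbm6 and Rbm10, related regulators of exon choice, had 0.04, 0.10 and 0.13. Only Rbm10 of these had every Hcy library above every Veh library, at 58.2 to 64.8 CPM against 53.7 to 57.5 CPM, and its adjusted p was 0.536. Rbm17, which acts at 3′ splice sites, had 0.10, and Rbm42 had -0.06. Rbm41 and Rbm48, which are linked to the minor spliceosome, had 0.14 and -0.03.

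Among the RBM regulators of alternative splicing or mRNA fate, 8 of 9 tested genes had a fold change below 0 (88.9%, against 53.1% of all genes), from -0.35 (Rbm14) upward, and none passed the adjusted threshold. The sign of Rbm3, Rbm15b and Rbm20 changed when a library was left out. Rbm14, a coactivator and paraspeckle protein, had 57.2, 51.3 and 53.6 CPM in Veh and 45.0, 42.0 and 40.3 CPM in Hcy. The groups did not overlap. Rbm14 had a log2 fold change of -0.35 (SE 0.08, 95% interval -0.53 to -0.17) at an adjusted p of 0.0622, and DESeq2 gave an adjusted p of 0.0313. Rbm4, a regulator of splicing and translation that is listed next to Rbm14 on chromosome 1, had 41.7, 36.4 and 46.6 CPM in Veh and 38.3, 32.8 and 36.4 CPM in Hcy. The groups overlapped, with a log2 fold change of -0.21 (95% interval -0.46 to 0.03). Its neighbour and paralog Rbm4b had -0.18 (95% interval -0.50 to 0.14). The listed intervals of Rbm4 and Rbm14, both on the minus strand, overlap at their ends.

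Rbm3, a cold-inducible protein that supports translation, was the RBM gene with the highest level. It had 563, 613 and 830 CPM in Veh and 659, 633 and 675 CPM in Hcy. Veh replicate 3 was the highest library and the Hcy libraries lay between it and the other 2, with a log2 fold change of -0.03 (95% interval -0.32 to 0.27). Without Veh replicate 3 the log2 fold change was 0.16, and its adjusted p was 0.138. Rbm15 and Rbm15b, which belong to the complex that methylates adenosine in RNA, had -0.11 and -0.05. Rbm38, Rbm45 and Rbm20 had -0.15, -0.13 and 0.08.

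The 7 RBM genes of nucleolar or RNA decay complexes had log2 fold changes of -0.19 to 0.09. Rbm34, a nucleolar protein, had 33.9 to 45.3 CPM in Veh and 33.7 to 37.7 CPM in Hcy. Rbm7, part of the nuclear exosome targeting complex, had 0.02 (95% interval -0.19 to 0.22). Rbm26 and Rbm27, partners in nuclear decay of polyadenylated RNA, had 0.05 and -0.11. Rbm27 was lowest in Veh replicate 3, at 17.6 CPM against 27.7 and 29.6 CPM in Veh replicates 1 and 2. Rbm33 showed the same order, at 15.3 CPM against 23.0 and 25.7 CPM. The nucleolar genes Rbm19 and Rbm28 had log2 fold changes of -0.11 and 0.09. Of the RBM genes given no role here, Rbm18, Rbm43, Rbm25l1 and Rbm12b had -0.02, 0.01, 0.15 and -0.40 on the same scale, and the groups overlapped in each.

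Leaving out Veh replicate 3, a choice made after the data were seen, raised the number of members with an adjusted p of at most 0.05 from 1 to 9 of 63 (14.3%). Over all genes it gave 957 of 14352 (6.67%). Of the 9 members, 6 were higher in Hcy (Hnrnpa1, Hnrnpa2b1, Hnrnpa3, Hnrnpd, Srsf5 and Srsf7), with log2 fold changes of 0.21 to 0.31. The 3 lower genes were Rbm39 (-3.50), Hnrnpab (-2.26) and Rbm14 (-0.36). Rbm39 and Hnrnpab also passed the fold threshold.

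Compared per length, as CPM per kb of the listed gene length, Hnrnpa3 (497), Hnrnpa2b1 (494) and Rbm3 (363) had the highest mean levels over the 6 libraries. The first place differed by group, since Hnrnpa3 had 550 and Hnrnpa2b1 530 in Hcy, and 444 and 458 in Veh. They were followed by Hnrnpk (279), Hnrnpa1 (253), Hnrnpl (190), Hnrnpf (181), Srsf5 (180), Hnrnpu (158) and Srsf2 (132), on the same scale. Neighbours in this order overlapped in their libraries, except Rbm3 with Hnrnpk, Hnrnpa1 with Hnrnpl, and Hnrnpu with Srsf2. Rbm39 had 9.62 and its copy 2.45.

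**Figure D5:**
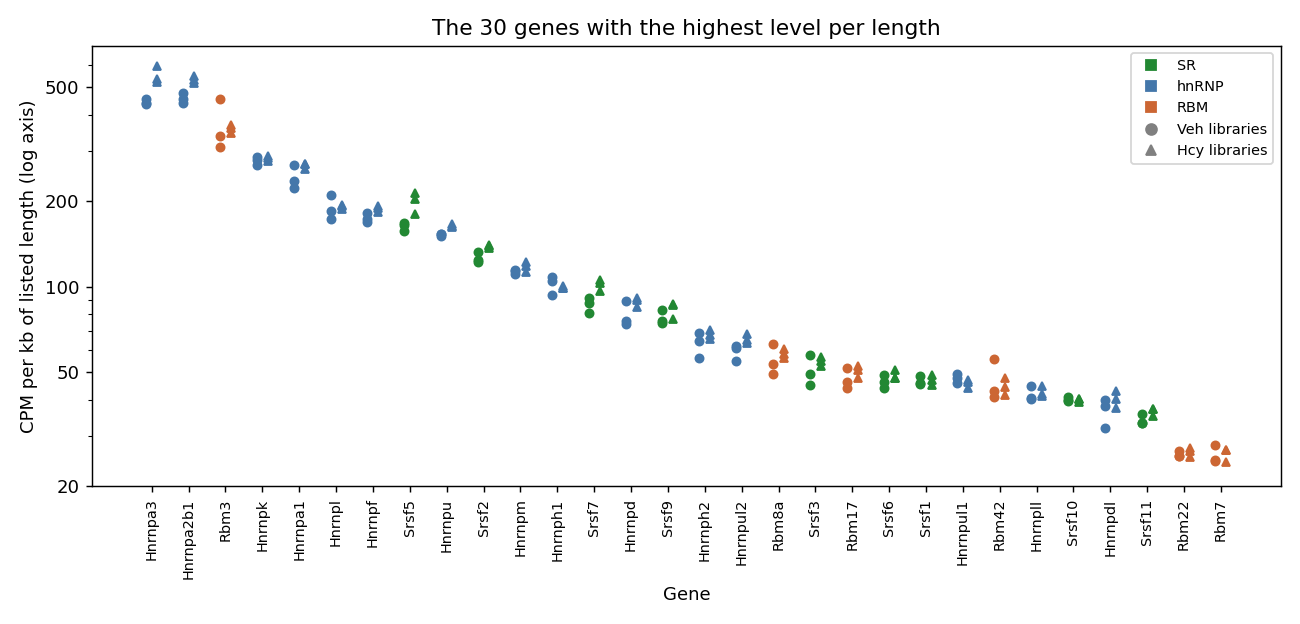
CPM per kb of listed gene length (y axis, log axis) in each Veh (circles) and Hcy (triangles) library for the 30 genes with the highest mean (x axis), coloured by family. Genes of the hnRNP families take 7 of the first 10 places, and Hnrnpa3 and Hnrnpa2b1 lead with means of 497 and 494.

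Promoter sequences are shown for Rbm39, the only called gene, and for Rbm14 and Hnrnpa3, which had the next smallest adjusted p-values among members within 2-fold in each group. They are the 250 bases before the start of the gene in RefSeq's GRCr8, on the gene's strand, at chr3:165156236-165156485 (minus strand), chr1:211535066-211535315 (minus strand) and chr3:80985684-80985933 (plus strand). Capitals mark CTCGCGAG, a palindrome, and CCAAT read on either strand (ATTGG on the strand shown), both chosen after the sequences were read.
Rbm39: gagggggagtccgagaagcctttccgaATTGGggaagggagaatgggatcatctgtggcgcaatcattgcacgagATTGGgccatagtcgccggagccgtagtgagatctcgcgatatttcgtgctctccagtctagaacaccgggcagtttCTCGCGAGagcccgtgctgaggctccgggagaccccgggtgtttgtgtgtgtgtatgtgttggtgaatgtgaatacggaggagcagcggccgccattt
Rbm14: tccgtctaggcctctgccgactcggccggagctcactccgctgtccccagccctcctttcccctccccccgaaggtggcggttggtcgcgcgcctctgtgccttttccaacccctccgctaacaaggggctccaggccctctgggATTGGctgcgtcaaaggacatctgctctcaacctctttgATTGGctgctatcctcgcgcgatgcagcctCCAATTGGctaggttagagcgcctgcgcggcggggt
Hnrnpa3: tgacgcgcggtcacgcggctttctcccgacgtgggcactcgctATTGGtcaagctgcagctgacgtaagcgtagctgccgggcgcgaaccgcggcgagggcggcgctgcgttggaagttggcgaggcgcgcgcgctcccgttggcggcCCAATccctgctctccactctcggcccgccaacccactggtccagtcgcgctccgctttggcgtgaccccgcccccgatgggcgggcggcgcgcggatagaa

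CTCGCGAG is the core of an element of CpG-rich promoters bound by BANP, whose binding is blocked by DNA methylation. It was found once in the Rbm39 window and in 209 of 33469 windows of the same length (0.624%). Of 69 windows for 62 of the 69 member symbols it was found in 4, for Rbm26, Rbm39, Rbm44 and Srsf4. CCAAT, the letters read by the factor NF-Y, occurred in 34.0% of all windows and 53.6% of the member windows. Rbm14 held 4 occurrences, with 2 of them overlapping in the letters CCAATTGG, and 2.52% of all windows held at least 3. Rbm39 and Hnrnpa3 held 2 each, and 9.42% of all windows held 2 or more. The Rbm39 and Rbm14 windows each held 19 CG dinucleotides and the Hnrnpa3 window 39, where the median over all windows was 5. Counts this high were found in 18.4% of all windows for 19 and in 1.43% for 39. These matches describe letters in the window, and Rbm39, Rbm26 and Srsf4 had log2 fold changes of -4.04, 0.05 and 0.22.

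Splicing genes outside the naming rule were read from 3 lists. None of the 106 tested genes of the 113 listed passed the adjusted threshold in either direction, and 9 (8.49%, against 13.4% of all genes) had an unadjusted p of at most 0.05, of which 6 were higher and 3 lower in Hcy. Their fold changes were above 0 for 69 (65.1%, against 46.9% of all genes), and every Hcy library lay above every Veh library for 18 (17.0%, against 10.8%) and below for 5 (4.72%, against 9.27%). With DESeq2 none was called. Without Veh replicate 3, 9 passed (8.49%, against 6.67% of all genes), 7 higher and 2 lower, and of these Ewsr1 was called at a log2 fold change of -2.14. Of the SR kinases and SR-related proteins 20 of 23 were tested, with a median log2 fold change of 0.06 and a range of -0.14 to 0.19. Of 36 tested among 40 other splicing regulators, the median was 0.07. All 50 genes of the core spliceosome and exon junction were tested, with a median of 0.02 and a range of -0.53 to 0.28.

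Named after its values were seen, Ewsr1, an RNA-binding protein, had 58.9, 15.5 and 5.81 CPM in Veh and 7.61, 9.94 and 7.76 CPM in Hcy. Veh replicate 1 was far above the other libraries, and the log2 fold change was -1.67 (SE 0.67) at an adjusted p of 0.311. Ddx39b, a helicase of spliceosome assembly and export, had a log2 fold change of 0.28 at an adjusted p of 0.114, and it passed with DESeq2 (adjusted p of 0.0344) and without Veh replicate 3 (adjusted p of 0.0238).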

How the data were processed

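RNA-seq of 6 rBMEC libraries (3 Hcy and 3 Veh) was analysed. The authors deposited a table of raw read counts with gene positions, lengths and Swiss-Prot matches. The submitters' processing notes name fastp, HISAT2 2.2.1, StringTie 2.2.3, Cufflinks, featureCounts 2.0.6 and DESeq2 1.42.0, and the build mRatBN7.2 (rn7). The table itself names no build, and its positions reach 282724300 on chromosome 1, beyond the end of that chromosome in mRatBN7.2, so they are given as listed and not as mRatBN7.2. The use of strand and the handling of reads that fit several places are not given in the sources used here. A second deposited table, which holds the fold changes and p-values of the authors' own comparison, was not used.

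Groups were taken from the sample titles. Genes with at least 10 counts over the 6 libraries were kept, library sizes were scaled by TMM, and Hcy was tested against Veh by edgeR's quasi-likelihood method (edgeR 4.0.16, limma 3.58.1, R 4.3.3) with group as the only term. P-values were adjusted by Benjamini-Hochberg over all genes tested. A call needed an adjusted p no higher than 0.05 and a log2 fold change of 1 or more in size. SDs were taken across the 3 libraries per group, and ranges within a group were taken after adding 0.5 CPM. For rows in and around the doubled stretches these ranges, and for cell type markers the summed levels, used library totals without the TMM scaling. P-values measure the spread between these libraries, and limits from 0 or few counts cover counting error only. Rows without a gene name (683) held 0.786% of the counts, stayed in the library totals and are not named. Members and lists were chosen with earlier results of these data known. Named were Rbm39 and its copy, members with an adjusted or unadjusted p of at most 0.05, a log2 fold change of 1 or more in size, or a range over 2-fold, the SR genes, the 10 highest per length, and others by role. On simulated counts the test recovered 195 of 200 genes simulated with a log2 change of 2, with 6 wrong calls among 14384 genes. The 200 genes were drawn from rows with at least 200 counts, and smaller changes were not simulated. Alternatives were DESeq2, other scaling, other count minimums, other thresholds, a replicate block and leaving out each library. One item is not reported here.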

Additional observations from a re-analysis of the deposited data

How the results depend on the processing

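All genes called numbered 71, and 109 with at least 1 count over the libraries, 341 by the adjusted p alone, 374 by the unadjusted p with the fold threshold, 957 by the adjusted p alone without Veh replicate 3 (chosen after seeing the data), and 39 to 112 when each library was left out. Members called numbered 1, and 4 with at least 1 count (Rbm39, LOC100910882, Hnrnpab and Hnrnpc), 5 by the unadjusted p with the fold threshold, 9 by the adjusted p alone without Veh replicate 3, and 0 to 2 when each library was left out. Without the 5 rows of doubled stretches (chosen after seeing the data) the number was 0 by construction, since Rbm39 is 1 of those rows. Other splicing genes called numbered 0, and 1 by the unadjusted p with the fold threshold and 0 to 1 when each library was left out. The median log2 fold change of members was 0.019 to 0.071 when each library was left out. Members with a range over 2-fold numbered 6, and 2 without the 5 rows, which hold the others. When each library was left out, the log2 fold change was -4.48 to -3.50 for Rbm39, 4.17 to 5.73 for LOC100910882 and -2.43 to -1.46 for their sum. With at least 1 count, LOC100910882 (4.74) and the sum (-2.00) were called.

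Of 792 alternative fits of the 61 other tested members, 752 kept direction and call, 5 gained a call and 35 changed sign. The sign changed when a library was left out for Hnrnph1 (-0.091 to 0.0048), Hnrnpl (-0.040 to 0.099), Hnrnpll (-0.0043 to 0.079), Hnrnpr (-0.041 to 0.019), Rbm12 (ENSRNOG00000049913, -0.84 to 1.22), Rbm15b (-0.16 to 0.019), Rbm18 (-0.073 to 0.068), Rbm20 (-0.051 to 0.26), Rbm27 (-0.31 to 0.026), Rbm3 (-0.14 to 0.16), Rbm33 (-0.21 to 0.13), Rbm42 (-0.15 to 0.087), Rbm43 (-0.089 to 0.12), Rbm48 (-0.095 to 0.017), Rbm7 (-0.017 to 0.077), Rbm8a (-0.0065 to 0.17), Srsf1 (-0.016 to 0.042) and Srsf10 (-0.018 to 0.0091). It also changed with the replicate block for Rbm33 (0.00106) and Rbm43 (-0.000464). The cause of these changes was not tested. Same-numbered libraries deviated together weakly (correlations of 0.0237, 0.166 and 0.0581), and no label pairs them. With the replicate block, 82 genes and 1 member, Rbm39 (-3.86), were called. Members with few counts, such as Rbm11, Rbm24 and Rbm44, could not be compared at this depth. LOC100910882 and the Rbm12 row ENSRNOG00000049913 did not pass filterByExpr and so have no value under it.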
